A study of Rattus norvegicus with 12 samples.

Results

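RNA labelled as left atrial from male SHRs given sacubitril/valsartan (ARNI group) was compared with that from SHRs given valsartan alone (ARB group), using the 6 libraries of these groups out of 12 in the series. The members were chosen by their labels alone, as the 3 libraries named ARNI and the 3 named ARB. All 6 were labelled as left atrium of spontaneously hypertensive rats (SHRs, a strain that becomes hypertensive with age), and the strain field beside that phenotype names Wistar-Kyoto, so the strain rests on the title, the phenotype field and the study's text. Rats bought at an age of 14 weeks received a daily dose over 4 weeks, either valsartan at 30 mg/kg/day or sacubitril/valsartan at 60 mg/kg/day, a dose of the combined drug. Both groups therefore received an angiotensin receptor blocker, and the ARNI group received a neprilysin inhibitor in addition. Saline-treated SHRs and Wistar-Kyoto rats (7.5 ml/kg/day, 3 libraries each) are used as background levels and in alternative fits with more libraries, and not in the comparison itself, since the strain words in their titles contradict the library names by which they were grouped. Markers went against the left atrial label in ARNI replicate 2 and in part in ARB replicate 3, as given below. The study states 3 rats per group, and the labels do not say which rat each library came from, so that p-values measure the spread between these libraries.

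Neprilysin is a membrane peptidase that degrades atrial and brain natriuretic peptides, and also bradykinin, adrenomedullin, endothelin and angiotensins. Natriuretic peptides, which atrial myocytes store and secrete, act through guanylyl cyclase receptors that make cGMP, and cGMP activates protein kinase G. Valsartan blocks the type 1 angiotensin receptor, so the contrast addresses what the added neprilysin inhibition does to atrial transcripts.

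In these libraries 0 genes passed the thresholds for a differentially expressed gene (DEG, adjusted p no higher than 0.05 and a log2 fold change of 1 or more in either direction). The differences described here are therefore values and unadjusted p. Genes induced within minutes to hours of a stimulus (Nr4a1, Fosb, Klf10 and other immediate early genes, and Sik1) were higher in the ARNI group, with a median log2 difference of 0.93 over 35 listed genes. Circadian clock genes differed in both directions, with Arntl, Nfil3 and Clock higher and Tef, Hlf and Dbp lower in every ARNI library than in every ARB library. Genes of fatty acid oxidation had a median log2 difference of 0.63, and ARNI replicate 2, with ventricular muscle markers, was the highest library for all 28. The median was -0.13 without ARNI replicate 2 alone, and 0.36 without ARNI replicate 2 and ARB replicate 3. The cause was not tested.

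Total counts per library ranged from 12614014 to 15823511 in the 6 libraries, and levels are given as CPM, counts scaled to the size of the library. A gene with no read could still have been present at 0.187 to 0.260 CPM (3 counts), a bound for counting error only. Marker lists, chosen with earlier results of these data known, set 2 libraries apart. In ARNI replicate 2 the atrial light chain Myl7 was at 10.7 CPM and the ventricular light chain Myl2 at 4591 CPM, and the mean log2 CPM was 3.20 for 10 atrial markers and 8.33 for 8 ventricular markers. In ARB replicate 3 both sets were high, at 7.84 and 7.11, with Myl7 at 5429 and Myl2 at 2716 CPM. In the other 4 libraries the atrial mean was 8.18 to 8.69 and the ventricular mean 2.60 to 3.26, in the direction that the left atrial label states. Of the saline libraries used as background, all 3 of the WKY group had ventricular means of 8.58 to 8.69 and atrial means of 2.05 to 2.47, and saline SHR replicate 2 had both sets high. The ventricular gene Irx4 had 0 counts in ARNI replicates 1 and 3 and ARB replicates 1 and 2, and was at 40.7 CPM in ARNI replicate 2 and 27.6 CPM in ARB replicate 3. ARNI replicate 3 was atrial by these markers but held the highest levels of smooth muscle, adipocyte and neuronal markers. The summed level of 6 smooth muscle markers was 765 CPM there and 162 to 237 CPM in the other 5 libraries, and that of 10 neuronal markers was 198 CPM against 13.7 to 51.2 CPM. For 10 adipocyte markers the mean log2 CPM was 5.14 in ARNI replicate 3 and nearly as high, 5.01, in ARB replicate 2. It was -0.94 to 0.30 in the remaining ARNI and ARB libraries. Main results are given in all 6 libraries and in the 4 that remain without ARNI replicate 2 and ARB replicate 3. The 4 libraries are part of the 6, so the smaller fit is no independent evidence.

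**Figure D1:**
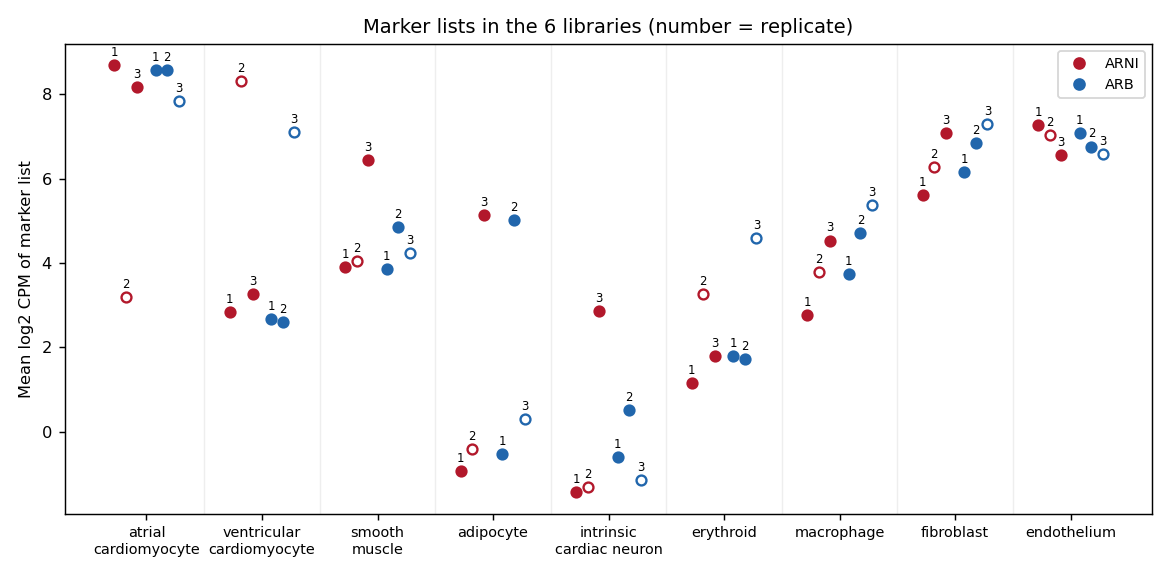
Mean log2 CPM of 9 marker lists (x axis) in the 3 ARNI (red) and 3 ARB (blue) libraries, with the replicate number above each point and open points for ARNI replicate 2 and ARB replicate 3. ARNI replicate 2 sits at 3.20 for atrial and 8.33 for ventricular markers, ARB replicate 3 is high for both, and ARNI replicate 3 has the highest smooth muscle and neuronal values.

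With edgeR's quasi-likelihood test, 0 of 13948 genes (0%) were DEGs in 6 libraries, and the lowest adjusted p was 0.993. In 4 libraries 0 of 14125 genes (0%) were DEGs, with a lowest adjusted p of 0.0898 for LOC103689931. Without a correction, 539 genes (3.86%) had p under 0.05 in 6 libraries, of which 309 (2.22%) were higher and 230 (1.65%) lower in the ARNI group, and 382 (2.7%) had it in 4 libraries. With counts scaled by the total alone, 194 were higher and 300 lower, so this split depends on the scaling. All 3 ARNI values lay above all 3 ARB values for 717 genes (5.14%) and below them for 744 (5.33%). The biological coefficient of variation was 0.349 in 6 libraries and 0.276 in 4. DESeq2 on the same counts called 18 genes in 6 libraries (0.124% of those with an adjusted p), 17 higher and 1 lower, and 24 in 4 libraries (0.131%), with 10 genes called in both. The 18 calls of DESeq2 in 6 libraries were Wbp11l1, Sik1, Slc41a3, Nr4a1, Arntl, B3galt2, Txnip, Dgcr2, Scn1a, Rcan1, Fosb, Klf10, Klf11 and 4 provisional loci, all higher in the ARNI group, and Gins2, which was lower. Every gene that follows had an edgeR adjusted p of at least 0.993 in 6 libraries. Where p under 0.05 is mentioned, it is edgeR's p without that correction, and an exact permutation test of 3 against 3 libraries could not go below 0.1 for a single gene.

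Of the 539 genes, 209 also had p under 0.05 in the 4 libraries in the same direction and 330 did not. Of the 209, 190 did not overlap between the groups, and 169 of these had a mean of at least 2 CPM in the higher group and a symbol that is not provisional, 100 higher and 69 lower in the ARNI group. The 169 were taken from 13948 genes tested. Among them were 8 of the 35 tested genes of the immediate early list and 5 of the 19 tested genes of the clock list. The genes described next were taken from those with the lowest p after the values had been seen.

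The gene with the lowest p in 6 libraries was Sik1 (NCBI gene 59329), a salt-inducible kinase of the AMPK family that cAMP signalling induces. Its level was 41.1, 49.4 and 45.4 CPM in ARNI replicates 1, 2 and 3 and 17.4, 21.0 and 16.7 CPM in ARB replicates 1, 2 and 3. The lowest ARNI library was thus above the highest ARB library by more than the range within either group. The mean was 45.3 CPM ± 4.13 (SD, n = 3 libraries) in the ARNI group and 18.4 CPM ± 2.30 (SD, n = 3 libraries) in the ARB group. The log2 fold change was 1.31 ± 0.15 (SE) in edgeR's fit, and DESeq2 gave an adjusted p of 7.67e-08. In the 4 libraries it was 1.15 ± 0.16 (SE). In the fits of 9 libraries that add the saline SHRs, with or without chamber markers as a covariate, Sik1 did not reach p under 0.05. Sik1 was at 94.6 CPM in saline SHR replicate 3 and at 19.0 and 16.8 CPM in the other 2 saline SHR libraries.

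Nr4a1, an orphan nuclear receptor induced by cAMP and calcium signals, was at 139, 309 and 281 CPM in the ARNI libraries and at 47.1, 74.9 and 49.6 CPM in the ARB libraries. Its log2 fold change was 2.10 ± 0.36 (SE), and 1.77 ± 0.43 (SE) in the 4 libraries. The groups did not overlap, yet saline SHR replicate 3 was at 1186 CPM, and in both fits of 9 libraries Nr4a1 did not reach p under 0.05. Rcan1, an inhibitor of calcineurin whose short transcript is induced by calcium signals, was at 486, 443 and 625 CPM against 284, 185 and 195 CPM. Its log2 fold change was 1.24 ± 0.24 (SE) in 6 libraries and 1.23 in 4, by edgeR.

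The upstream sequences of 3 of these genes are shown because the cAMP response element, TGACGTCA, and its core, TGACG, are the letters bound by CREB, the factor through which cAMP induces many early genes. Each run holds the 250 bases before the annotated start, 5′ to 3′ on the gene's strand, from RefSeq on build GRCr8, which is not the build of the count table. Capitals mark the core on either strand (CGTCA on the opposite strand) in Sik1, at chr20:9958647-9958896 on the minus strand, and in Nr4a1, at chr7:134259888-134260137 on the plus strand. In Rcan1, at chr11:45118237-45118486 on the minus strand, they mark the whole element, which contains the core on both strands.
Sik1: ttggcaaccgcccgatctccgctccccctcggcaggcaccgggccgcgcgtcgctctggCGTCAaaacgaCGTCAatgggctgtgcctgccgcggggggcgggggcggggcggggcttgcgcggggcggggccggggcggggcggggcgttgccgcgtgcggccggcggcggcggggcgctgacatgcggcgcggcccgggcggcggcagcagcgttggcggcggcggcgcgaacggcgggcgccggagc
Nr4a1: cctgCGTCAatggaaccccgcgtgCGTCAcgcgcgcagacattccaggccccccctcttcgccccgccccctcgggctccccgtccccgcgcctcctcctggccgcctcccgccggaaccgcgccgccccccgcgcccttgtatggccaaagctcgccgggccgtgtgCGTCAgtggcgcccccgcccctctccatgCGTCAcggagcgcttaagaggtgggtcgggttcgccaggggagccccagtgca
Rcan1: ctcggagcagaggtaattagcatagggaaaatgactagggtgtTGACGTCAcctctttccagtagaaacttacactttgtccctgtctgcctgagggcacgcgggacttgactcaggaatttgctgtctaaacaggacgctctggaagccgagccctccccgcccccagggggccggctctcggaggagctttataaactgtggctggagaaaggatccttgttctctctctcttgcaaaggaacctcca
Sik1 held 2 cores and Nr4a1 held 4, a number reached by 0.173% of the 33469 promoters in the table. The core was present in 18.2% and the whole element in 1.59% of all these windows. Of the immediate early list, 25 of 38 genes matched a promoter by symbol, of which 15 held the core and 5 the whole element. A match describes letters in this window and not binding.

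Most listed immediate early genes were higher in the ARNI group. Of 35 tested members, 32 were higher, 15 had p under 0.05, all of them higher (background 2.22% in that direction), and 9 lay above every ARB library (background 5.14%) with 0 below. The median log2 difference was 0.93, beside 0.02 over all genes, and in the 4 libraries it was 0.87 with 12 members at p under 0.05 (background 2.7%). Over the settings tried, leaving out single libraries included, the median stayed between 0.74 and 1.13. Of the 15 members, 10 had p under 0.05 in the 4 libraries, 3 (Csrnp1, Klf10 and Nr4a3) in the fit of 9 libraries that adds the saline SHRs, 1 (Klf10) when chamber markers were a covariate there, and 5 in the fit of 12. With single libraries left out it was 6 to 14 of the 15, the fewest without ARB replicate 1 and 8 without ARB replicate 3 or ARNI replicate 3. Fosb, which encodes an AP-1 transcription factor, was at 13.0, 20.5 and 54.3 CPM in the ARNI libraries and at 2.80, 5.82 and 1.92 CPM in the ARB libraries. Its log2 fold change was 3.05 ± 0.68 (SE), and 2.94 in the 4 libraries. Fos, its relative, was at 33.8, 60.1 and 169 CPM against 18.8, 28.2 and 21.2 CPM (log2 fold change 1.96 ± 0.59 (SE), and 2.10 in the 4 libraries). Klf10, a zinc finger factor induced by transforming growth factor beta, was at 25.1, 37.0 and 35.8 CPM against 15.5, 13.6 and 8.79 CPM, a log2 fold change of 1.38 ± 0.27 (SE), and 1.06 ± 0.22 (SE) in the 4 libraries. Klf10 and Fosb did not overlap between the groups, and Fosb and Fos were highest in ARNI replicate 3.

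The other members with p under 0.05 followed the same order of libraries in part. Egr2 and Egr3, zinc finger factors of the early growth response family, were at 17.4 and 20.7 CPM in ARNI replicate 3 and between 2.69 and 4.73 CPM in the other 2 ARNI libraries, all above the ARB range of 1.004 to 2.13 CPM. Ccn1, a matricellular protein, was at 106, 117 and 423 CPM against 60.7, 57.3 and 62.8 CPM. Egr1 was at 173 and 256 CPM in ARNI replicates 1 and 3 but at 59.9 CPM in ARNI replicate 2, below all ARB libraries (61.3 to 74.0 CPM), and its log2 fold change was 1.27 in 6 libraries and 1.58 in 4. Atf3, a stress-induced factor, was at 3.98, 32.3 and 91.6 CPM against 3.39, 5.26 and 5.02 CPM, so that ARNI replicate 1 lay within the ARB range. Atf3 lost p under 0.05 in the 4 libraries by edgeR, as did Jun, Nr4a2, Nr4a3 and Fosl2.

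Single libraries differed in how far they stood above the ARB group. Of the 35 genes, 12 in ARNI replicate 1, 25 in ARNI replicate 2 and 34 in ARNI replicate 3 were above all 3 ARB values, and the highest of the 6 values was in ARNI replicate 3 for 24 genes and in ARNI replicate 2 for 11. The mean log2 CPM of the 36 listed genes with a count was 4.30, 4.93 and 5.54 in the ARNI libraries and 3.89, 4.13 and 4.10 in the ARB libraries. In saline SHR libraries it was 4.05, 4.09 and 6.29, and in saline SHR replicate 3 a total of 25 of the 35 genes were above every ARNI library. The spread among saline SHRs was thus wider than the distance between the treated groups. ARNI replicate 3, the highest of the treated libraries, also held the highest smooth muscle, adipocyte and neuronal markers, with adipocyte markers nearly as high in ARB replicate 2. The part of these markers in the early gene values was not tested.

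**Figure D2:**
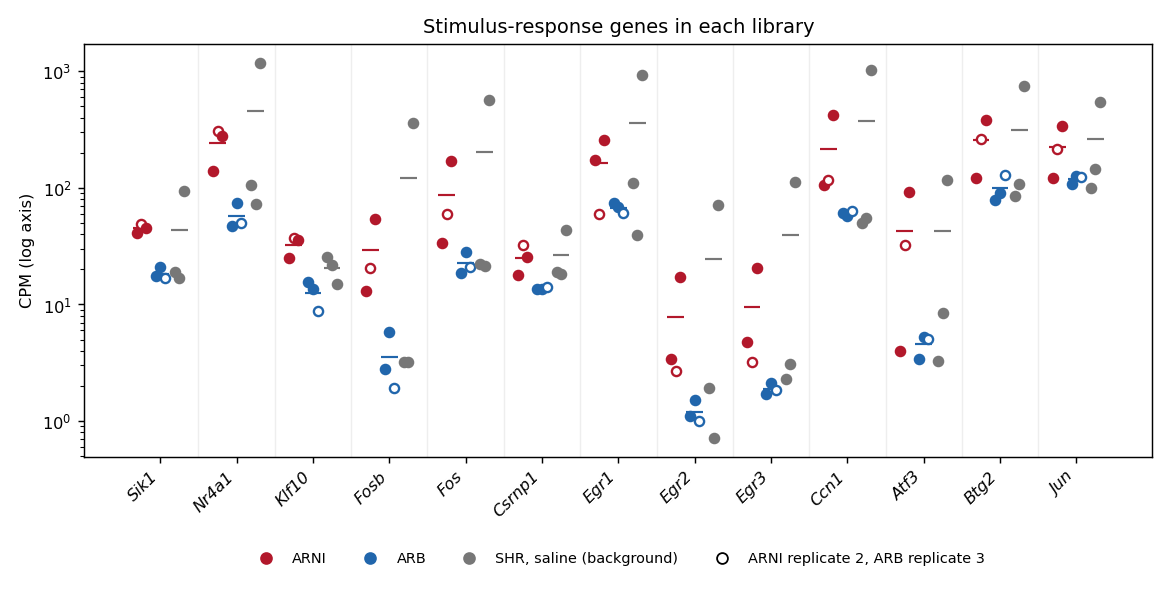
CPM on a log axis of 13 genes in ARNI (red), ARB (blue) and saline SHR (grey) libraries, with 1 point per library, a bar at the group mean and open points for ARNI replicate 2 and ARB replicate 3. Sik1, Nr4a1, Klf10, Fosb, Fos, Csrnp1, Egr2, Egr3 and Ccn1 are higher in all 3 ARNI libraries than in all 3 ARB libraries, and 1 saline SHR library lies above both groups for most genes.

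The circadian clock list held genes that differed in both directions. Arntl (also Bmal1) and Clock or Npas2 encode the activating pair of the clock, and Dbp, Tef and Hlf encode output factors of the PAR bZIP family that cycle in the opposite phase to Arntl, while Nfil3 opposes them at their binding sites. Of 19 tested members, 6 were higher and 13 lower in the ARNI group, 6 had p under 0.05 (4 higher and 2 lower, background 2.22% and 1.65%), and 3 lay above and 3 below all ARB libraries (background 5.14% and 5.33%). The median log2 difference was -0.12 in 6 libraries and -0.30 in 4, where 7 members had p under 0.05 (background 2.7%). It was 0.02 when ARNI replicate 1 was left out. Because the list holds genes of opposite phase, its median does not describe its members.

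Arntl (NCBI gene 29657) was at 61.7, 13.6 and 16.4 CPM in the ARNI libraries and at 4.04, 2.88 and 2.76 CPM in the ARB libraries. Its log2 fold change was 3.25 ± 0.65 (SE), DESeq2 gave an adjusted p of 0.000321, and in the 4 libraries it was 3.48 ± 0.72 (SE). All ARNI libraries were above all ARB libraries, and ARNI replicate 1 was the highest. Clock was at 102, 59.3 and 59.6 CPM against 48.8, 45.4 and 36.0 CPM (log2 fold change 0.77 ± 0.26 (SE), and 0.76 in the 4 libraries), and it lost p under 0.05 without ARB replicate 2 or 3. Npas2 was at 26.2, 11 and 17.5 CPM against 11.8, 10.5 and 7.11 CPM, with ARNI replicate 2 inside the ARB range. Nfil3 was at 24.9, 18.5 and 12.7 CPM against 9.78, 6.82 and 9.29 CPM (log2 fold change 1.13 ± 0.29 (SE), and 1.17 in the 4 libraries).

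The output factors were lower in the ARNI group. Tef was at 94.3, 164 and 136 CPM in the ARNI libraries and at 225, 264 and 230 CPM in the ARB libraries, a log2 fold change of -0.85 ± 0.23 (SE), and -1.10 ± 0.23 (SE) in the 4 libraries. Hlf was at 6.59, 4.51 and 11.5 CPM against 20.9, 33.7 and 13.8 CPM (log2 fold change -1.59 ± 0.45 (SE), and -1.61 in the 4 libraries). Dbp was at 16.9, 125 and 117 CPM against 199, 214 and 259 CPM, so that the groups did not overlap, but its log2 fold change of -1.36 ± 0.67 (SE) did not reach p under 0.05. ARNI replicate 1 had the highest Arntl and the lowest Dbp, Tef, Per2 and Per3 of the 6 libraries. The repressor genes overlapped between the groups, with Per2 at 33.0, 52.6 and 79.8 CPM against 76.3, 102 and 66.3 CPM and Per3 at 22.9, 43.3 and 48.7 CPM against 67.1, 80.3 and 38.7 CPM. Per1, Cry1, Cry2, Nr1d1 and Nr1d2 also overlapped and were above p of 0.05. In saline SHRs Arntl ranged from 3.92 to 25.4 CPM and Dbp from 107 to 249 CPM, which reaches into both treated groups. The hour of collection is not given in the sources used here.

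The sequence upstream of Arntl, listed by RefSeq as Bmal1, is shown because it holds a match to the ROR element, the site through which REV-ERB and ROR receptors set the phase of this gene. It covers 250 bases before the start at chr1:176766078-176766327 on the plus strand of GRCr8, 5′ to 3′, with the match in capitals.
Arntl: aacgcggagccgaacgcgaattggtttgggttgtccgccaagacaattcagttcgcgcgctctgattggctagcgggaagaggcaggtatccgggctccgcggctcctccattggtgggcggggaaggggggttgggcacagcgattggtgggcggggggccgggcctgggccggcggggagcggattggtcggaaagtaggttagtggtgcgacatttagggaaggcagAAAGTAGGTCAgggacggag
The match ends 10 bases before the start. It was found in 0.317% of all 33469 windows, on either strand, and in 1 of the 16 clock genes matched by symbol.

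**Figure D3:**
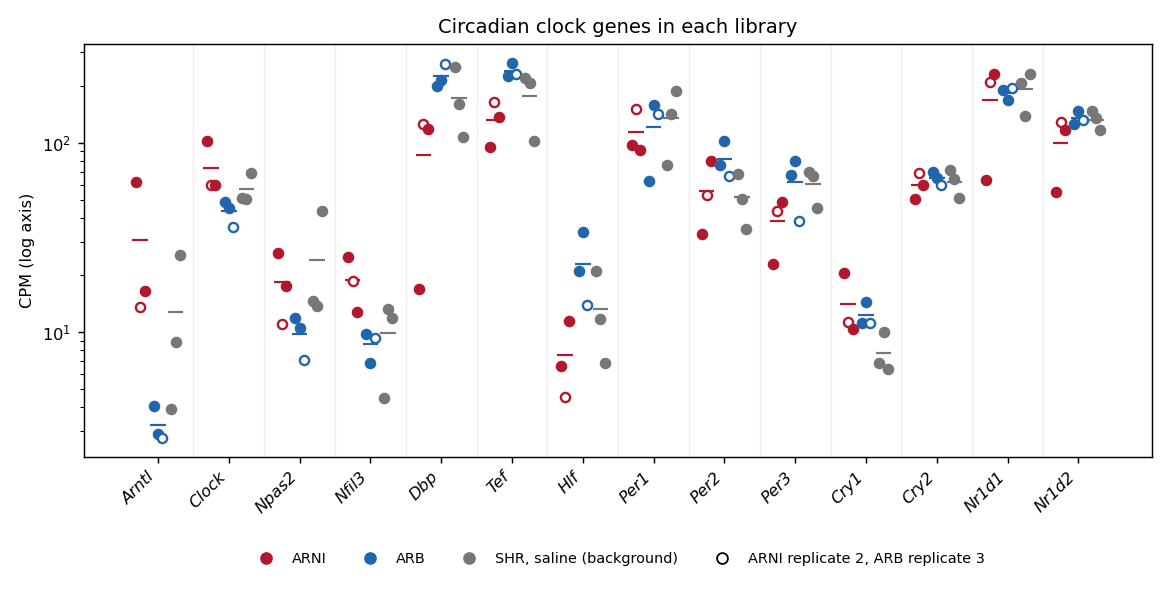
CPM on a log axis of 14 clock genes in ARNI (red), ARB (blue) and saline SHR (grey) libraries, with 1 point per library, a bar at the group mean and open points for ARNI replicate 2 and ARB replicate 3. Arntl, Clock and Nfil3 lie higher and Dbp, Tef and Hlf lower in all 3 ARNI libraries than in all 3 ARB libraries, and ARNI replicate 1 has the most extreme Arntl and Dbp values.

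Other genes with low p in both fits included transporters, a channel and enzymes. Slc41a3, a magnesium transporter of mitochondria, was at 116, 88.6 and 97.9 CPM in the ARNI libraries and at 44.9, 28.6 and 34.9 CPM in the ARB libraries (log2 fold change 1.49 ± 0.20 (SE), and 1.53 ± 0.25 (SE) in the 4 libraries). Txnip, a glucose- and stress-regulated inhibitor of thioredoxin, was at 768, 1173 and 967 CPM against 471, 392 and 492 CPM (log2 fold change 1.12 ± 0.23 (SE), and 0.99 in the 4 libraries, DESeq2 adjusted p 0.00154). Scn1a, a voltage-gated sodium channel of neurons that is also found in heart, was at 12.4, 21.1 and 19.3 CPM against 6.78, 6.82 and 5.86 CPM (log2 fold change 1.45 ± 0.24 (SE), and 1.21 in the 4 libraries). B3galt2, a galactosyltransferase, was at 27.5, 21.3 and 35.2 CPM against 12.7, 9.26 and 9.87 CPM (log2 fold change 1.41 ± 0.23 (SE), and 1.51 in the 4 libraries). None of these 4 genes overlapped between the groups, and each kept p under 0.05 in the 4 libraries, as the rule that chose them required. The amino acid transporter Slc38a1 was at 182, 182 and 196 CPM against 123, 130 and 112 CPM (log2 fold change 0.63 ± 0.13 (SE), and 0.56 in the 4 libraries). Saline SHR levels of Scn1a ranged from 6.55 to 20.7 CPM, and replicates 2 and 3 lay within the ARNI range. Slc41a3 ranged there from 43.4 to 85.3 CPM and Txnip from 425 to 719 CPM. The highest saline SHR value of each lay between the treated groups. B3galt2 ranged there from 10.2 to 12.9 CPM and Slc38a1 from 109 to 152 CPM, below every ARNI library.

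A few genes were near 0 in one group or depended on how reads were assigned. Wbp11l1 had 0 counts in all 3 ARB libraries and was at 9.89, 43.5 and 41.0 CPM in the ARNI libraries. With the ARB group set to 3 counts per library the difference was 149-fold, which allows for counting error but not for read assignment. Wbp11l1 was also at 0 in 2 of 3 saline SHR libraries and at 52.1 CPM in the other, so it was present or absent within the saline group too. The symbol marks it as a copy of Wbp11, which was at 64.3, 32.5 and 31.3 CPM in the ARNI libraries and at 67.7, 60.1 and 65.7 CPM in the ARB libraries. ARNI replicates 2 and 3 thus had more Wbp11l1 and less Wbp11 than ARNI replicate 1. Expected counts divide reads between similar genes, so both values and the fold difference are uncertain, and the part of read assignment was not tested. Dgcr2 was at 10.8, 4.51 and 1.88 CPM against 0, 0.313 and 0 CPM, and Rps19, a ribosomal protein gene with many copies, was at 89.8, 72.2 and 67.9 CPM against 125, 116 and 184 CPM. LOC103689931 was at 12.3 and 11.8 CPM in ARNI replicates 1 and 3 and at 87.8 CPM in ARNI replicate 2, against 77.1, 79.8 and 105 CPM. Its log2 fold change was -1.20 ± 0.81 (SE) in 6 libraries and -2.72 ± 0.12 (SE) in the 4 that leave out the high ARNI library.

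Of the genes lower in the ARNI group, Gins2, a subunit of the DNA replication helicase complex, had the lowest p. It was at 4.91, 3.73 and 3.95 CPM in the ARNI libraries and at 10.3, 9.70 and 8.95 CPM in the ARB libraries (log2 fold change -1.19 ± 0.20 (SE), DESeq2 adjusted p 0.00340, and -1.19 ± 0.23 (SE) in the 4 libraries). The rule also took Ephx1, a microsomal epoxide hydrolase, at 21.9, 33.5 and 25.4 CPM against 43.0, 44.9 and 54.8 CPM. Several others are known from immune cells. Cd180, a Toll-like receptor homologue of B cells and macrophages, was at 2.18, 1.65 and 1.49 CPM against 6.06, 4.75 and 3.93 CPM (log2 fold change -1.46 ± 0.29 (SE), and -1.57 in the 4 libraries). Fcna, a ficolin of macrophages, was at 2.74, 4.08 and 7.13 CPM against 11.5, 15.1 and 14.9 CPM (log2 fold change -1.56 ± 0.37 (SE), and -1.45 in the 4 libraries). Vsig4, a complement receptor of resident macrophages, was at 4.41, 0.434 and 4.21 CPM against 12.3, 21.5 and 26.8 CPM (log2 fold change -2.71 ± 0.73 (SE), and -1.99 in the 4 libraries). Irf9, the DNA-binding subunit of the interferon-activated complex ISGF3, was at 31.9, 28.6 and 36.1 CPM against 50.7, 45.1 and 58.0 CPM (log2 fold change -0.66 ± 0.15 (SE), and -0.51 in the 4 libraries). The rule that chose these genes required that the ARNI and ARB groups did not overlap. In saline SHR replicates 1, 2 and 3 Gins2 was at 10.2, 10.4 and 7.38 CPM and Irf9 at 47.4, 40.2 and 43.1 CPM. Ephx1 was there at 35.6, 25.6 and 32.6 CPM and Cd180 at 5.20, 2.07 and 4.45 CPM. Fcna was at 13.2, 4.15 and 19.3 CPM and Vsig4 at 13.1, 4.46 and 3.90 CPM. For Ephx1, Cd180, Fcna and Vsig4 the saline SHRs thus reached into the ARNI range.

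Markers of macrophages were lower as well. All 8 listed markers were lower in the ARNI group (median log2 difference -0.74), while 53.2% of all genes tested were higher. Of the 8 markers, 2 had p under 0.05 (background 1.65%) and 0 were at 0 in all libraries. In the 4 libraries 6 of 8 were lower (median -0.53) with 0 at p under 0.05 (background 2.7%). C1qa, a complement component of macrophages, was at 11.3, 20.6 and 33.7 CPM against 30.4, 49.4 and 97.9 CPM, and ARNI replicate 3 lay within the ARB range. The summed level of the 8 markers was 78.8 to 266 CPM in the ARNI group and 155 to 521 CPM in the ARB group, and it was highest in ARB replicate 3, which also had the highest haemoglobin levels (Hba-a1 at 2174 CPM, against 130 to 557 CPM elsewhere in the 6). In bulk RNA fewer cells of a type and less RNA per cell cannot be told apart, and the part of macrophage content in the values of Cd180, Fcna and Vsig4 was not tested.

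The direct substrates of neprilysin and their receptors were next examined. Of 9 tested genes of the natriuretic peptide system, 4 were higher and 5 lower in the ARNI group, 1 had p under 0.05 (background 3.86%) and 2 lay above all ARB libraries (background 5.14%). The median log2 difference was -0.04 in 6 and 0.05 in 4 libraries, and it ranged from -0.27 without ARNI replicate 1 to 0.33 without ARB replicate 1. Npr2, the guanylyl cyclase receptor for C-type natriuretic peptide, was at 51.8, 68.3 and 61.6 CPM in the ARNI libraries and at 41.9, 44.7 and 39.4 CPM in the ARB libraries. The mean was 60.6 CPM ± 8.33 (SD, n = 3 libraries) against 42.0 CPM ± 2.66 (SD, n = 3 libraries), a log2 fold change of 0.54 ± 0.15 (SE). In the 4 libraries it was 0.37 ± 0.14 (SE), so that Npr2 did not keep p under 0.05 there. Npr1, the receptor for atrial and brain natriuretic peptides, was at 40.5, 38.3 and 44.2 CPM against 38.2, 36.0 and 33.5 CPM, which did not overlap but were close (log2 fold change 0.21 ± 0.12 (SE)).

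The peptide genes themselves were spread too widely for a comparison. Nppa, which encodes atrial natriuretic peptide, was at 44944, 45 and 17232 CPM in the ARNI libraries and at 48847, 34237 and 26887 CPM in the ARB libraries. The value of 45 CPM was in the ventricular-type ARNI replicate 2, and without it and ARB replicate 3 the log2 fold change was -0.43 ± 0.49 (SE). Nppb, which encodes brain natriuretic peptide, was at 1243, 42.5 and 992 CPM against 1450, 507 and 505 CPM. Mme, the gene of neprilysin, was at 0.187, 1.91 and 6.67 CPM against 0.456, 3.75 and 0.837 CPM, a low level with overlapping groups. The clearance receptor gene Npr3 was at 59.7 CPM in ARNI replicate 2 and 68.1 CPM in ARB replicate 3 and between 306 and 682 CPM in the other 4 libraries. The convertase gene Corin was at 249 to 819 CPM against 327 to 668 CPM.

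Of 17 tested genes of the renin-angiotensin system, 9 were higher and 8 lower in the ARNI group. By edgeR, 0 had p under 0.05 in 6 libraries (background 3.86%) and 0 in 4 libraries (background 2.7%). DESeq2 called 0 of them in 6 libraries (background 0.124%). Of the 17, 0 lay above and 1 below all ARB libraries (background 5.14% and 5.33%). With shares this low, a count of 0 in 17 genes does not set the list apart from all genes. Agtr1a, which encodes the receptor that both groups had blocked, was at 2.36, 3.30 and 8.17 CPM against 3.06, 4.63 and 4.10 CPM. Ace was at 9.26, 15.9 and 22.9 CPM against 7.76, 11.9 and 13.6 CPM, and the groups overlapped. Agt, the angiotensinogen gene, was at 20.7 CPM in ARB replicate 2, where the summed adipocyte markers were at 823 CPM (170 to 1243 CPM over the 6 libraries). It was at 1.13 to 4.47 CPM in the other 5 libraries, which include ARNI replicate 3, where the adipocyte sum was highest (1243 CPM). The part of adipocyte content in the Agt values was not tested. Of 15 tested genes for other neprilysin substrates and their receptors, 6 were higher and 9 lower. By edgeR, 0 had p under 0.05 in 6 libraries (background 3.86%) and 0 in 4 libraries (background 2.7%), and DESeq2 called 0 in 6 libraries (background 0.124%). A count of 0 does not set this short list apart from all genes either. Of the 15, 0 lay above and 1 below all ARB libraries (background 5.14% and 5.33%). The gene below was Ramp3, a subunit of the adrenomedullin receptor, at 1.99, 0.954 and 1.68 CPM against 3.39, 2.75 and 2.01 CPM. Ramp3 did not reach p under 0.05. Adm, Edn1 and Apln, the genes of adrenomedullin, endothelin-1 and apelin, overlapped between the groups.

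4 pathways that the study singled out for this contrast were described with lists written by hand, and since the study chose them on these same libraries, their directions are not independent evidence. Of 131 tested genes of cGMP-PKG signaling, 97 were higher in the ARNI group, 7 had p under 0.05 (6 higher, 1 lower, background 3.86%), 11 lay above and 1 below all ARB libraries (background 5.14% and 5.33%), and the median log2 difference was 0.16 in 6 and 0.12 in 4 libraries. Over all genes the median was 0.02 and 0.00, and 53.2% of genes were higher in 6 libraries. Beside Npr2, Irs2, an insulin receptor substrate, was at 57.8, 159 and 115 CPM against 36.1, 53.2 and 24.7 CPM (log2 fold change 1.55 ± 0.45 (SE), and 0.93 in the 4 libraries). Plcb2, a phospholipase C of blood cells, was at 0.808, 1.04 and 0.972 CPM against 2.09, 2.44 and 1.76 CPM (log2 fold change -1.14 ± 0.31 (SE), and -1.35 in the 4 libraries). Plcb2 was the only one of the 7 with p under 0.05 in both fits.

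Of 219 tested genes of MAPK signaling, 128 were higher (58.4%, near the 53.2% over all genes). In this list 17 had p under 0.05 (14 higher and 3 lower, background 2.22% and 1.65%), and 17 lay above and 7 below all ARB libraries (background 5.14% and 5.33%). The median log2 difference was 0.08 in 6 and 0.03 in 4 libraries. The list shares 10 tested genes with the immediate early list, which had a median of 0.71, and without them the median of the remaining 209 genes was 0.06. Map3k20, a stress-activated kinase, was at 50.2, 50.8 and 47.0 CPM against 32.3, 34.1 and 25.9 CPM (log2 fold change 0.69 ± 0.15 (SE), and 0.54 in the 4 libraries). It kept p under 0.05 in the 4 libraries.

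Of 70 tested genes of ECM-receptor interaction, 54 were higher, 6 had p under 0.05, all higher (background 2.22%), 8 lay above and 2 below all ARB libraries (background 5.14% and 5.33%), and the median log2 difference was 0.22 in 6 and 0.17 in 4 libraries. The median was 0.10 without ARB replicate 3, 0.11 without ARNI replicate 3 and 0.40 without ARB replicate 2. Thbs1, thrombospondin 1, a matricellular activator of latent transforming growth factor beta, was at 14.2, 18.3 and 16.9 CPM against 10.04, 6.63 and 5.27 CPM (log2 fold change 1.18 ± 0.28 (SE), and 0.89 in the 4 libraries). Itga1, a collagen-binding integrin, was at 23.1, 17.4 and 16.7 CPM against 11.3, 12.8 and 8.62 CPM (log2 fold change 0.82 ± 0.22 (SE), and 0.71 in the 4 libraries). Col4a2, a chain of basement membrane collagen, was at 235, 458 and 307 CPM against 181, 188 and 223 CPM and was highest in the ventricular-type ARNI replicate 2. These 3 genes did not overlap between the groups and had p under 0.05 in both fits, although Thbs1 lost it in the fits of 9 and 12 libraries and Col4a2 without ARNI replicate 2, ARB replicate 1 or ARB replicate 2.

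In the separate list of collagens and matrix enzymes, of 36 tested genes 21 were higher (58.3%, near the 53.2% over all genes). At p under 0.05, 1 was higher and 1 lower (background 2.22% and 1.65%). The median log2 difference was 0.14 in 6 and 0.23 in 4 libraries, but -0.17 without ARNI replicate 3 and -0.05 without ARB replicate 1. Dcn, the fibroblast proteoglycan decorin, was at 385, 442 and 585 CPM against 599, 711 and 926 CPM (log2 fold change -0.65 ± 0.25 (SE), and -0.45 in the 4 libraries). Of 7 fibroblast markers 6 were lower in 6 libraries (median log2 difference -0.48), with 2 at p under 0.05 (background 1.65%). In 4 libraries 4 were lower (median -0.21), with 0 at p under 0.05 by edgeR (background 2.7%). Their summed level was 750 to 1755 CPM in the ARNI group and 1109 to 1881 CPM in the ARB group. Eln, elastin, was at 180, 69.0 and 258 CPM against 101, 96.4 and 65.7 CPM, and its log2 fold change was 0.95 in 6 libraries and 1.14 in 4. Acta2, smooth muscle actin, was at 165, 57.0 and 335 CPM against 81.1, 69.8 and 57.1 CPM. All 6 smooth muscle markers were higher in the ARNI group, with a median of 1.14 in 6 and 1.42 in 4 libraries, and ARNI replicate 3 had the highest value of each. Of 38 tested TGF-beta ligands, receptors and SMADs, 21 were higher (55.3%, near the 53.2% over all genes) and 1 had p under 0.05 (background 3.86%). The median was 0.02, with values from -0.17 to 0.10 when single libraries were left out.

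Of 55 tested genes of PPAR signaling, 40 were higher in the ARNI group and 15 lower, 4 had p under 0.05, all higher (background 2.22%), 3 lay above and 2 below all ARB libraries (background 5.14% and 5.33%), and the median log2 difference was 0.30 in 6 and 0.17 in 4 libraries. The median was -0.06 without the ventricular-type ARNI replicate 2 and 0.0064 with chamber markers as a covariate in 9 libraries. The list shares 10 tested genes with fatty acid oxidation, which had a median of 0.76, and the remaining 45 genes had a median of 0.10. Cpt1a, the carnitine palmitoyltransferase that admits fatty acids to mitochondria, was at 63.0, 101 and 85.7 CPM against 43.6, 47.7 and 55.1 CPM (log2 fold change 0.79 ± 0.21 (SE), and 0.69 ± 0.19 (SE) in the 4 libraries). It was above all ARB libraries in each of the 3 ARNI libraries.

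All 28 genes of fatty acid oxidation were higher in the ARNI group, with a median log2 difference of 0.63, but 1 of them (Cpt1a) had p under 0.05 (background 2.22%) and 1 lay above all ARB libraries (background 5.14%). ARNI replicate 2, with ventricular markers, was the highest of the 6 libraries for all 28 genes, and ARB replicate 3, with both kinds of markers, was above ARNI replicates 1 and 3 for 26. Acadm, medium-chain acyl-CoA dehydrogenase, was at 194, 1786 and 460 CPM in the ARNI libraries and at 183, 242 and 920 CPM in the ARB libraries. Without ARNI replicate 2 alone, 7 of the 28 genes were higher and the median log2 difference was -0.13. With atrial minus ventricular markers as a covariate in 9 libraries it was 0.06. With ARB replicate 3 left out as well, all 28 were again higher with a median of 0.36, and 28 of 28 were above both ARB libraries in ARNI replicate 3 and 10 of 28 in ARNI replicate 1. The citrate cycle list had the same shape, with 28 of 32 genes higher and a median of 0.32 in 6 and 0.14 in 4 libraries, but -0.16 without ARNI replicate 2 and -0.04 with the covariate. Its Pdk4, a kinase that shuts pyruvate out of the cycle, was at 47.3, 245 and 138 CPM against 27.3, 35.7 and 73.4 CPM (log2 fold change 1.68 ± 0.65 (SE), and 1.55 in the 4 libraries), and it lost p under 0.05 without ARNI replicate 2 or 3 or ARB replicate 1 or 2. Glycolysis genes had a median of 0.10 in 6 and 0.02 in 4 libraries and of -0.16 without ARNI replicate 2. In 6 libraries 0 of 23 had p under 0.05 by edgeR (background 3.86%) and DESeq2 called 0 (background 0.124%).

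**Figure D4:**
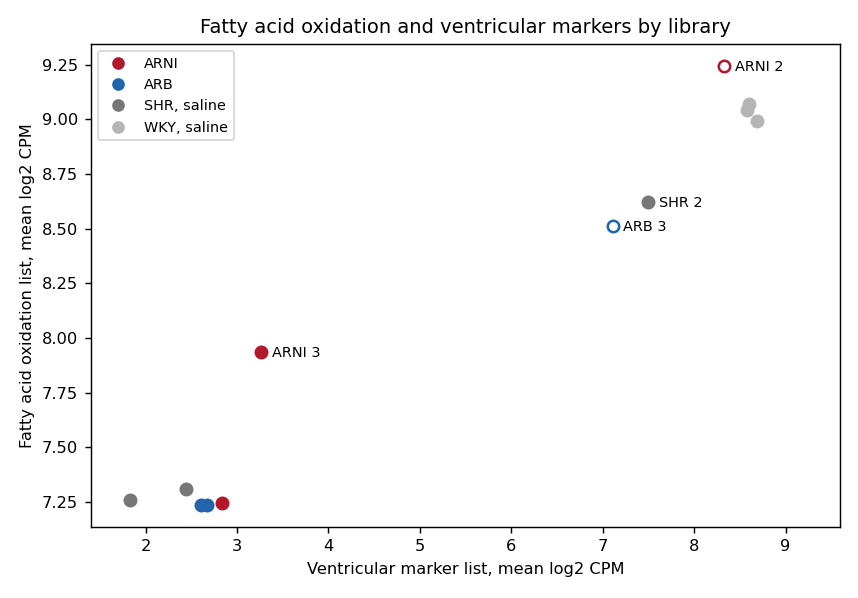
Mean log2 CPM of 28 fatty acid oxidation genes (y axis) against that of 8 ventricular markers (x axis) in 12 libraries, with 1 point per library and open points for ARNI replicate 2 and ARB replicate 3. The libraries with high ventricular markers (ARNI 2, ARB 3, SHR 2 and the WKY group) have the highest fatty acid oxidation values, and ARNI 3 lies between them and the other atrial libraries.

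Among genes of electrical activity, Kcnk3, a background potassium channel of atrial myocytes (TASK-1), was at 116, 103 and 117 CPM in the ARNI libraries and at 94.2, 81.8 and 73.6 CPM in the ARB libraries. Its log2 fold change was 0.44 ± 0.14 (SE), and 0.39 in the 4 libraries. It lost p under 0.05 without ARNI replicate 1 or 3 or ARB replicate 2 or 3, and with counts scaled by the total alone. In the list of 28 tested channel genes, which does not hold Scn1a, 1 had p under 0.05 in 6 libraries (background 3.86%). In 4 libraries 3 of 30 (Kcnk3, Scn3b and Kcnj12) had it (background 2.7%). The median of the list was 0.06 in 6 and 0.00 in 4 libraries. Of 25 calcium cycling genes 0 had p under 0.05 by edgeR in 6 libraries (background 3.86%) and 2 had it in 4 libraries (background 2.7%). DESeq2 called 0 in 6 libraries (background 0.124%). Of the 25, 2 lay above and 0 below all ARB libraries (background 5.14% and 5.33%). Ryr2, the calcium release channel of the sarcoplasmic reticulum, was among those above, at 2122, 2039 and 1783 CPM against 1513, 1744 and 1223 CPM. Ryr2 did not reach p under 0.05.

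**Figure D5:**
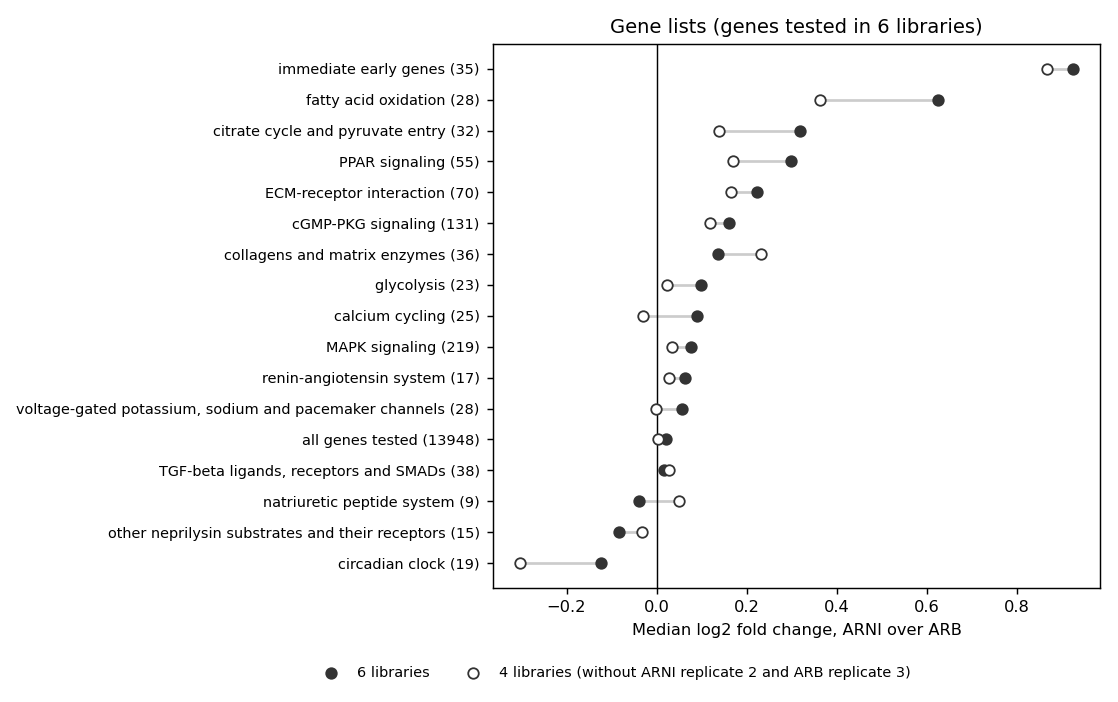
Median log2 fold change of ARNI over ARB (x axis) in 16 gene lists and all genes tested, with filled points for 6 libraries, open points for 4 and the number of genes tested in 6 libraries in parentheses. The immediate early list stays near its value (0.93 and 0.87), fatty acid oxidation moves from 0.63 to 0.36, and the clock list moves from -0.12 to -0.30.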

How the data were processed

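RNA of rat tissue labelled as left atrium was sequenced in 12 libraries. According to the study's methods and the submitters' processing notes, the authors filtered reads with SOAPnuke, aligned them to Rnor_6.0 with HISAT2 (2.0.4) and Bowtie2 (2.2.5), and estimated counts with RSEM. The deposited values are therefore expected counts per gene, of which 23.6% were not whole and were rounded here, for 37246 genes, 21239 of them with a count. The table also holds the authors' log2 ratio and p-value of another comparison, which were not used. The number of further columns of per-sample values left out was 0. The 6 ARNI and ARB libraries held 12614014 to 15823511 counts.

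CPM values were scaled by TMM factors over all 12 libraries. ARNI was compared with ARB by edgeR's quasi-likelihood test (edgeR 4.0.16, R 4.3.3) in the 6 libraries with TMM scaling and edgeR's filter on low counts, with Benjamini-Hochberg adjustment, and again without ARNI replicate 2 and ARB replicate 3. Mean log2 CPM levels used a prior count of 1, and each SE was the fold change divided by the root of its F statistic. A gene counted as a DEG when its adjusted p was no higher than 0.05 and its log2 fold change was 1 or more in either direction. Alternatives were DESeq2 (1.42.0), other scaling, no filter, fits with more libraries or a chamber marker covariate, a replicate block, and leaving out each library. Fits were tested on simulated data. No libraries held identical values, and pairs within a group differed by a chi-square per degree of freedom of 24.9 to 244.8. Tables and figures used Python 3.11.15, pandas 2.3.3 and matplotlib 3.10.9.

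The rule for named genes took DEGs and was empty. In its place the text names genes with p under 0.05 in both fits, the same direction, groups that did not overlap, at least 2 CPM in the higher group and no provisional symbol, from those with the lowest p, together with the lowest-p and best-known members of each list and genes called by DESeq2, all chosen after values were seen. The comparison and gene lists were chosen with earlier results of these data known. Promoter sequences came from RefSeq (GRCr8). Some genes that these rules would name are not reported here.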

Additional observations from a re-analysis of the deposited data

How the results depend on the processing

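Counts of DEGs stayed at 0 in edgeR with every library left out in turn, in 4 libraries, with other scaling, without a filter and with 12 libraries. DESeq2 called 18 in 6 libraries and 24 in 4 libraries, the latter chosen after seeing the data, and the fit of 9 libraries with atrial minus ventricular markers as a covariate called 1, Irx4 (log2 fold change -9.93, edgeR adjusted p 0.0109), which is itself a marker in that covariate. Genes at p under 0.05 numbered 1164 with 12 libraries and 1429 with the covariate, and 286 to 809 with 1 library left out, the lowest without ARB replicate 1, 306 without ARB replicate 3 and the highest without ARNI replicate 1. Same-numbered libraries correlated in their deviations at 0.54, -0.44 and -0.11. ARNI replicate 2 and ARB replicate 3, which both stand apart in chamber markers, correlated at 0.59, so these values cannot decide whether the numbers pair libraries. A replicate block gave 0 DEGs and 502 genes at p under 0.05. Log2 fold changes reversed with 1 library left out for Pcsk6 (range -0.19 to 0.71), Agt (-1.97 to 0.58), Pfkfb2 (-0.094 to 1.36), Mme (-0.72 to 2.2) and Acadm (-0.44 to 1.95). Nppb ranged from -0.67 to 0.59 and was 0.18 in 4 libraries by either tool. Corin ranged from -0.49 to 0.29, was 0.015 (edgeR) and 0.021 (DESeq2) in 4 libraries and 0.22 with the covariate. Npr3 ranged from -0.99 to 0.44 and was 0.55 with the covariate. The cause of these changes was not tested. The p-values rest on 3 libraries per group, and 1 library in each group differs from the others in chamber markers.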
